A study of Mus musculus with 3 samples.

Results

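The genes described here mark the surface of the fetal gonad: Msln, Upk3b, Lhx9, Krt8, Krt18 and Krt19. They were taken by name as markers of the surface epithelium, and every array probe that carried a RefSeq accession of one of them was used. This gave 8 probes of 41174 for 6 of the 16571 genes that could be named. Lhx9 and Krt8 had 2 probes each and the others 1. All 6 genes passed the filter on dim probes, as did 13449 genes in all.

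The developing gonad is covered by a layer of coelomic epithelium, which is continuous with the mesothelium lining the body cavity. Early in gonad formation cells leave this layer and add to the supporting cells inside, after which the layer remains as the surface epithelium. Mesothelin and uroplakin 3b are proteins of mesothelial cells, Lhx9 is a transcription factor that mice need to form a gonad, and the keratins are the filament proteins of simple epithelia. These genes are not limited to the surface: supporting cells and the ducts of the mesonephros make keratins too, and interstitial cells of the gonad make Lhx9.

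The gonads came from male embryos of the MCH mouse line with the genotype Cyp26b1-/- at embryonic days 12.5, 13.5 and 14.5 (E12.5 to E14.5). The missing protein is an enzyme that breaks down retinoic acid, and every group here lacks it. Control gonads were not analysed here, so each comparison is between stages of the mutant and none is between genotypes. Each stage had 2 arrays, described as biological duplicates; the labels do not say whether a sample was 1 embryo or a pool.

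RNA was measured on 1-colour Agilent arrays. Levels are log2 signals minus the 75th percentile of the same array, so that a level of 0 is a signal at that percentile. Of the spots, 65.9% to 70.8% were called well above background on the 6 arrays and 0 were saturated. One slide held the E12.5 pair and another the 4 arrays of E13.5 and E14.5, and the slides also carried different versions of the design file. Stage and slide cannot be told apart in any comparison with E12.5, whereas E14.5 and E13.5 can be compared on the same slide. Cyp26b1 itself still gave a signal: its 1 probe exceeded background throughout, and the level fell by 0.60 ± 0.17 at E13.5 and by 0.80 ± 0.17 at E14.5, each relative to E12.5 (limma adjusted p = 0.0451 and 0.0135). Whether the probe lies inside the deletion is unknown here, so it does not check the genotype.

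The surface genes did not move as a block. Msln rose strongly, Upk3b and Krt19 were highest at E13.5, Krt8 and Krt18 were lower at E14.5 than at E12.5, and the probes of Lhx9 disagreed. At E13.5 against E12.5, 3 of the 6 genes passed the threshold of an adjusted p of 0.05, all of them higher, where 32.0% of all genes tested passed and 18.1% passed as higher. At E14.5 against E12.5, 3 of the 6 passed, 1 higher and 2 lower, where 46.7% of all genes passed, 25.5% as higher and 21.2% as lower. Within the later slide, at E14.5 against E13.5, limma called 0 of the 6, where 0.052% of all genes passed (7 of 13449). At an unadjusted p of 0.05, 2 of the 6 and 2481 of all genes passed there. The median change of the 6 genes was 0.10 at E13.5 relative to E12.5, where that of all genes was 0.04. It was -0.23 in the within-slide comparison, where that of all genes was -0.01, and -0.05 over the whole window, where that of all genes was 0.03. The arrays of the compared stages did not overlap for 6 of 6 genes at E13.5 against E12.5, where the same held for 71.9% of all genes. Within the later slide this was so for 5 of 6 members and 55.7% of all genes, and over the whole window for 6 of 6 members and 75.5% of all genes.

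**Figure D1:**
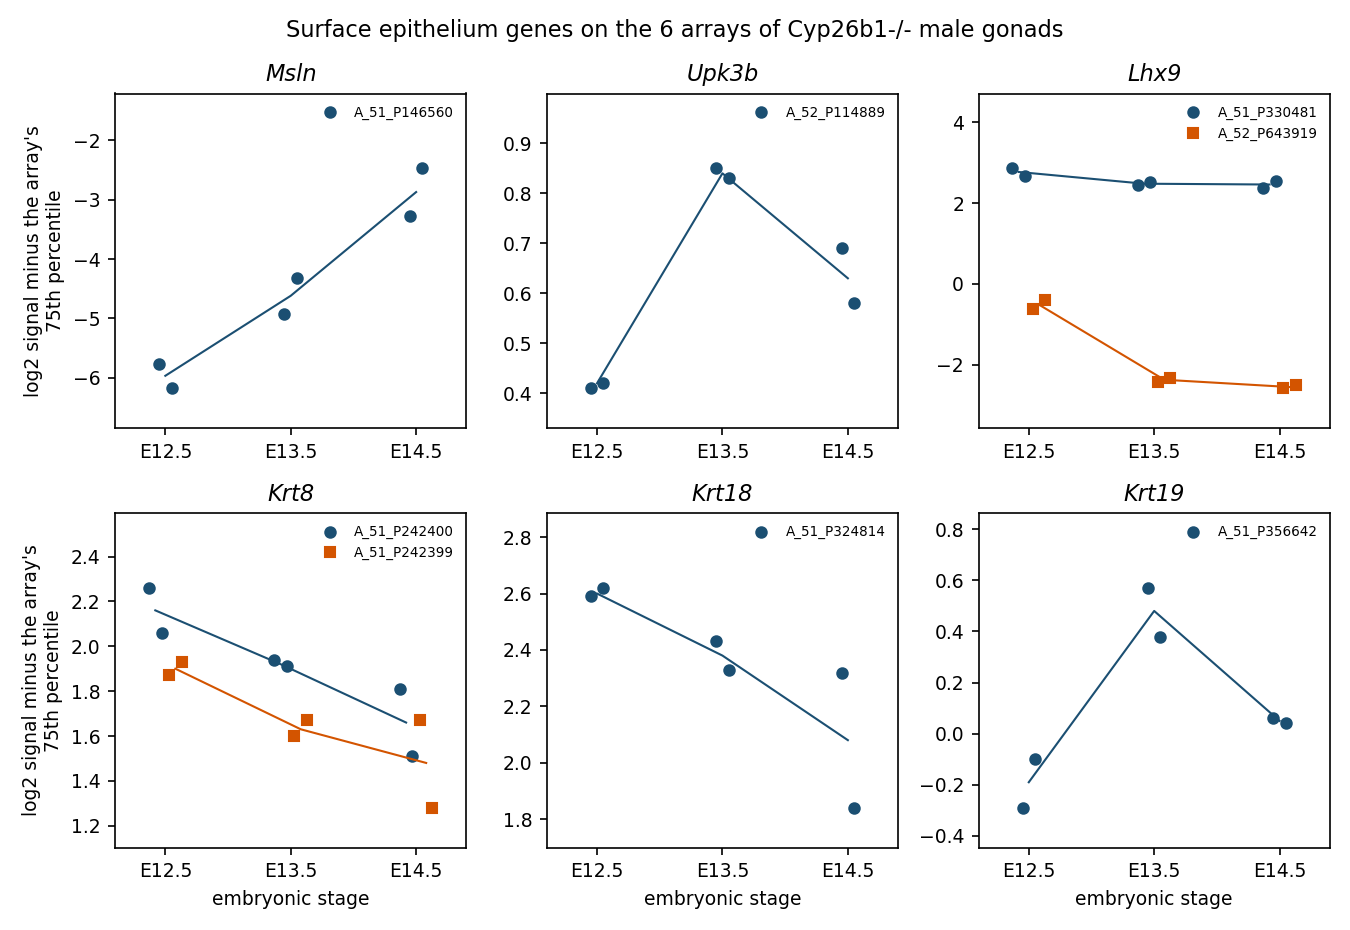
Level of each probe on each array, as log2 signal minus the 75th percentile of the array, by embryonic stage. Points are the 2 arrays of a stage, lines join stage means, and each panel has its own vertical scale, so heights are not comparable between panels or between probes. Msln climbs over the stages to -3.27 and -2.47 at E14.5, Upk3b and Krt19 peak at E13.5, and of the Lhx9 probes the second drops after E12.5.

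Msln encodes mesothelin, a surface glycoprotein of mesothelial cells. Its probe (A_51_P146560, chromosome 17) had levels of -5.77 and -6.18 on the E12.5 arrays, -4.92 and -4.32 on the E13.5 arrays, and -3.27 and -2.47 on the E14.5 arrays. Every array of a later stage was above every array of an earlier one. The gene was dim at first. Its unscaled signals were 32.9 and 19.2 on the E12.5 arrays, 1 of which was well above background, 40.6 and 50.1 on the E13.5 arrays, and 101 and 198 on the E14.5 arrays. Msln thus passed the filter on dim probes through E13.5 and E14.5 alone. Its second E12.5 signal lay just below 19.3, the lowest signal called well above background on that array. Msln was 8.58-fold higher at E14.5 than at E12.5 (3.1 ± 0.33, adjusted p = 0.00156, n = 2 arrays per stage). This fold rests on the dim E12.5 signals, and with normexp background correction, described below, the log2 change was 1.80. Msln was 2.56-fold higher at E13.5 than at E12.5 (1.35 ± 0.33, adjusted p = 0.0276). The E13.5 call did not survive leaving out an E12.5 array (adjusted p = 0.0675 and 0.115) or the second E13.5 array (0.124), or dropping the filter on dim probes (0.0602).

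Between E13.5 and E14.5, where both stages share a slide, Msln was 3.36-fold higher at E14.5 (1.75 ± 0.33, unadjusted p = 0.0018), but did not pass after adjustment (adjusted p = 0.0997). Only 57 of 13449 genes (0.424%) were higher by at least as much in that comparison, against 116 (0.863%) at E14.5 against E12.5 and 455 (3.38%) at E13.5 against E12.5. With normexp background correction, which adds an offset and pulls in the changes of dim probes, the within-slide change was 1.15 and passed (adjusted p = 0.0161). It also passed with median scaling (1.65, adjusted p = 0.0481) and with a trended variance prior (1.75, adjusted p = 0.0395). Under the other 15 of 18 alternatives it did not pass. In the authors' deposited table, whose linear ratios have an unstated reference, Msln stood at 0.186, 0.511 and 1.58 at E12.5, E13.5 and E14.5. In whole gonads a higher signal can come from more surface cells or from more RNA per cell, and these cannot be told apart here for any of the genes.

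Upk3b belongs to the uroplakins, a family first known from the bladder lining, and is also made by mesothelium. Its probe (A_52_P114889, chromosome 5) exceeded background on each of the 6 arrays, at 0.41 and 0.42 on the E12.5 arrays, 0.85 and 0.83 on the E13.5 arrays, and 0.69 and 0.58 on the E14.5 arrays. The duplicates were close, and the E13.5 arrays were highest and the E12.5 arrays lowest. Upk3b was 1.34-fold higher at E13.5 than at E12.5 (0.42 ± 0.10, adjusted p = 0.0262). At E14.5 it was at -0.21 ± 0.10 against E13.5 (adjusted p = 0.336) and 0.22 ± 0.10 against E12.5 (adjusted p = 0.124), and neither passed. A rise of at least that size at E13.5 was seen in 2860 genes (21.3%). Leaving out any one of the E12.5 or E13.5 arrays ended the call (adjusted p 0.0714 to 0.124), as did median scaling (0.103).

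Krt19 encodes a small acidic keratin that pairs with Krt7 or Krt8 and marks simple and surface epithelia. Its probe (A_51_P356642, chromosome 11) gave -0.29 and -0.10 on the E12.5 arrays, 0.57 and 0.38 on the E13.5 arrays, and 0.06 and 0.04 on the E14.5 arrays. As for Upk3b, the E13.5 arrays were highest and the E12.5 arrays lowest, with no overlap. Krt19 was 1.59-fold higher at E13.5 than at E12.5 (0.67 ± 0.12, adjusted p = 0.0127). At E14.5 it was at -0.43 ± 0.12 against E13.5 (unadjusted p = 0.013, adjusted p = 0.175) and at 0.24 ± 0.12 against E12.5 (adjusted p = 0.152). The E13.5 call rested on the first E12.5 array (adjusted p = 0.0551 without it) and the first E13.5 array (0.0684 without it). The profile of Krt19 over the 6 arrays, each gene centred on its own mean, differed from that of Upk3b by 0.13 (root mean square, log2). Krt19 was the 1408th nearest of 13448 genes to Upk3b, and Upk3b the 125th nearest to Krt19.

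Krt8 and Krt18 encode the basic and the acidic partner that make up the filaments of simple epithelia. Both genes lie on chromosome 15, on opposite strands, with 0 protein-coding genes and 2 long non-coding RNA genes annotated between them. The brighter Krt8 probe (A_51_P242400) gave 2.26 and 2.06 on the E12.5 arrays, 1.94 and 1.91 on the E13.5 arrays, and 1.81 and 1.51 on the E14.5 arrays. Its other probe (A_51_P242399) gave 1.87 and 1.93 on the E12.5 arrays, 1.6 and 1.67 on the E13.5 arrays, and 1.67 and 1.28 on the E14.5 arrays. The Krt18 probe (A_51_P324814) gave 2.59 and 2.62 on the E12.5 arrays, 2.43 and 2.33 on the E13.5 arrays, and 2.32 and 1.84 on the E14.5 arrays. On all 3 probes the E12.5 arrays were highest and the second E14.5 array was lowest.

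Krt8 was 1.41-fold lower at E14.5 than at E12.5 (-0.50 ± 0.14, adjusted p = 0.0306), and its other probe was at -0.42 ± 0.16 (adjusted p = 0.0818 over all probes). Krt18 was 1.44-fold lower (-0.52 ± 0.17, adjusted p = 0.0476), a call lost under 13 of 18 alternatives and in the fit over all probes (adjusted p = 0.063). The Krt8 call was lost under 8 of 18. Both counts include repeats of the same fit, and a 2-fold minimum that ends calls of this size by definition. Neither gene passed at E13.5 against E12.5, where Krt8 was at -0.24 ± 0.14 (adjusted p = 0.236) and Krt18 at -0.23 ± 0.17 (0.339). Neither passed at E14.5 against E13.5, with Krt8 at -0.26 ± 0.14 (adjusted p = 0.374) and Krt18 at -0.30 ± 0.17 (0.406). Falls of at least that size between E12.5 and E14.5 were seen in 2434 genes (18.1%) for Krt8 and 2268 (16.9%) for Krt18. The calls stood close to the threshold: without the second E14.5 array the changes were -0.35 for Krt8 and -0.29 for Krt18, and neither passed (adjusted p = 0.132 and 0.163).

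The profiles of Krt8 and Krt18 were the closest among the 15 pairs of members, at 0.088, with Krt18 the 169th nearest of 13448 genes to Krt8 and Krt8 the 87th nearest to Krt18. Because of this closeness the start regions in RefSeq's annotation of GRCm38.p6 are shown for the pair, from 250 bases before to 50 after the annotated start, 5′ to 3′ on the strand of the gene. The Krt8 region is chr15:102004293-102004592 on the minus strand, and the Krt18 region is chr15:102027966-102028265 on the plus strand. Capitals mark AGGTCA, the half-site bound by nuclear receptors such as the retinoic acid receptors, and TATAAA, the TATA box, both searched on both strands.
Krt8: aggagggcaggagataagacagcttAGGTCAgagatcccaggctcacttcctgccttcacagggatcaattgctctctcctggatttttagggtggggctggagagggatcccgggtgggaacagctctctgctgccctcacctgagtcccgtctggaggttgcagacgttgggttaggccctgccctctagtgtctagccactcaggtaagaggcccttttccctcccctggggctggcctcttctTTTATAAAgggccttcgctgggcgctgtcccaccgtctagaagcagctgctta
Krt18: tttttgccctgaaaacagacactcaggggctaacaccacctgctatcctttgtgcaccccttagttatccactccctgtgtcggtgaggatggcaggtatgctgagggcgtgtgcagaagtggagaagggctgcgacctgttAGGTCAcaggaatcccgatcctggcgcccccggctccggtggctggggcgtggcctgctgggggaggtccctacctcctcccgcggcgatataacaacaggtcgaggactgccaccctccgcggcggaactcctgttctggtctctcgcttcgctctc

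Each of the 2 regions held 1 AGGTCA match, beginning at position -225 relative to the start in Krt8 and at -108 in Krt18. The Upk3b region held 1 as well, at -155, and the Lhx9 region held 0. Of 32851 such regions in the RefSeq table, 16.3% held this motif. The Krt8 region held 2 overlapping TATAAA matches, 1 on each strand, and the other 3 regions held 0, where 13.6% of all regions held one. The GC box GGGCGG (35.7% of all regions) and the AP-1 element TGANTCA (7.81%) were found in 0 of the 4 regions, and CCAAT (37.4%) only in that of Lhx9, at -24 on the opposite strand. A match is only a description of these letters. Msln and Krt19 have no sequence shown.

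Lhx9 encodes a LIM-homeodomain factor of the coelomic epithelium and genital ridge, and is known to be made as several transcripts. Its brighter probe (A_51_P330481, chromosome 1) gave 2.86 and 2.67 on the E12.5 arrays, 2.46 and 2.51 on the E13.5 arrays, and 2.37 and 2.54 on the E14.5 arrays. The E12.5 arrays were highest, and the 2 later stages overlapped. The change was -0.29 ± 0.12 at E13.5 against E12.5 (adjusted p = 0.121), -0.31 ± 0.12 at E14.5 against E12.5 (0.081) and -0.02 ± 0.12 at E14.5 against E13.5 (0.936), and none passed.

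The second Lhx9 probe (A_52_P643919) behaved otherwise. It gave -0.63 and -0.39 on the E12.5 arrays, -2.42 and -2.32 on the E13.5 arrays, and -2.58 and -2.51 on the E14.5 arrays, well above background on all 6 arrays. The unscaled signals were 1154 and 1061 on the E12.5 arrays, 230 and 201 on the E13.5 arrays, and 163 and 193 on the E14.5 arrays. This probe was 3.61-fold lower at E13.5 than at E12.5 (-1.85 ± 0.13, adjusted p = 0.00353 over all probes) and 4.09-fold lower at E14.5 than at E12.5 (-2.03 ± 0.13, adjusted p = 0.00132). Within the later slide it was at -0.18 ± 0.13 at E14.5 against E13.5 (adjusted p = 0.574). Its fall from E12.5 was the largest among the 8 probes, and it lay between slides. Counted over probes, 4 of the 8 passed at E13.5 against E12.5, where 27.7% of all probes passed. At E14.5 against E12.5, 3 of the 8 passed, where 40.4% of all probes did, and at E14.5 against E13.5, limma called 0, where 0.00352% passed. In that last comparison 2 of the 8 had an unadjusted p below 0.05, as did 4142 of all 28378 probes.

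The gap between the Lhx9 probes was 1.57 in the log2 change at E13.5 against E12.5. The reference was 4281 genes with several probes well above background on every array, so dimmer probes were left out. Of these genes, 69 (1.61%) had probes at least as far apart, and the median gap was 0.31. At E14.5 against E12.5 the gap was 1.72, reached by 47 genes (1.1%), with a median of 0.33. Within the later slide it was 0.15, reached by 37.3% of genes, with a median of 0.11. The probes of Krt8 differed by 0.03 at E13.5 against E12.5, by 0.08 over the whole window and by 0.10 within the later slide. With the mean of both probes in place of the brighter one, Lhx9 was at -1.07 at E13.5 against E12.5 (adjusted p = 0.00377) and -1.17 at E14.5 against E12.5 (0.00119), so the call on this gene depends on which probe stands for it. The annotation also differed between slides: the files of the first slide gave both probes the same RefSeq transcript of Lhx9, and those of the second slide gave each probe another one. Such a change of accession was found for 2904 of the 41174 probes. Whether the probes read different transcripts was not tested. In the authors' deposited table the second probe stood at 2.17, 0.646 and 0.525 at E12.5, E13.5 and E14.5, and the brighter one at 1.08, 0.954 and 0.862.

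**Figure D2:**
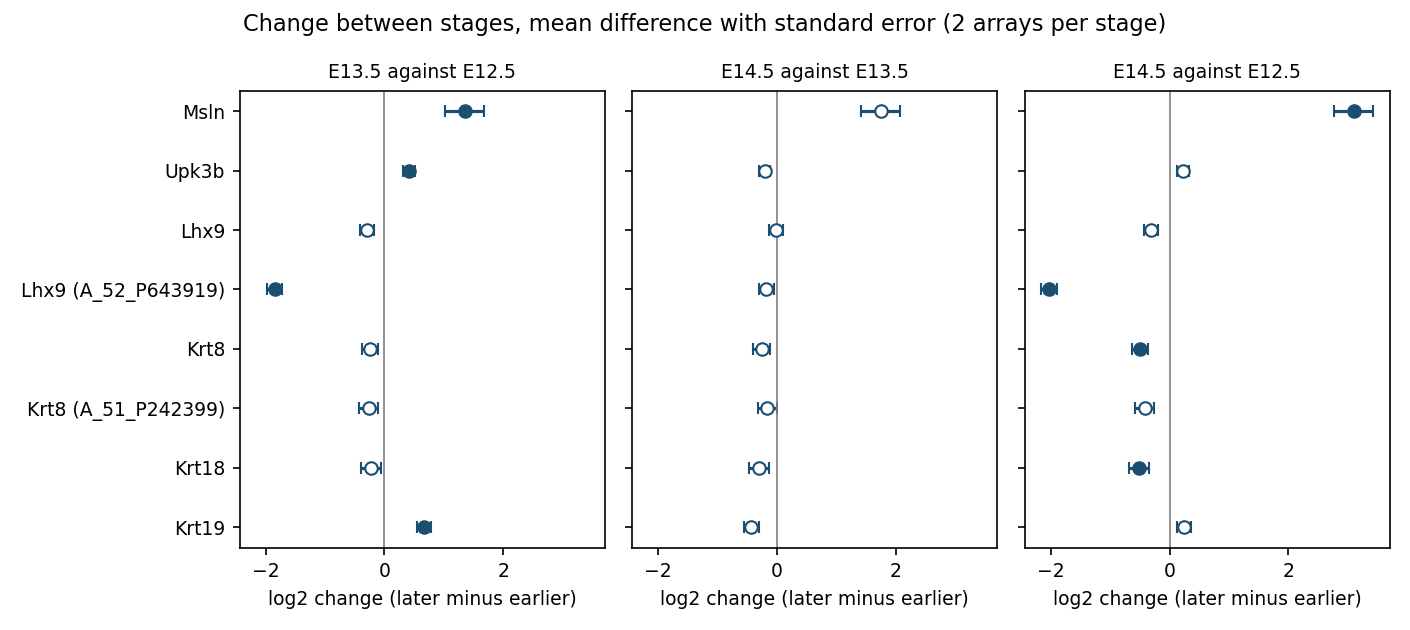
Log2 change of each gene, and of the second probes of Lhx9 and Krt8, between stages (later minus earlier), with the standard error from limma on 2 arrays per stage. Filled points passed an adjusted p of 0.05 and open points did not. Msln lies far to the right in all 3 panels, open only at E14.5 against E13.5, and the second Lhx9 probe lies far to the left in the 2 comparisons with E12.5.

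**Figure D3:**
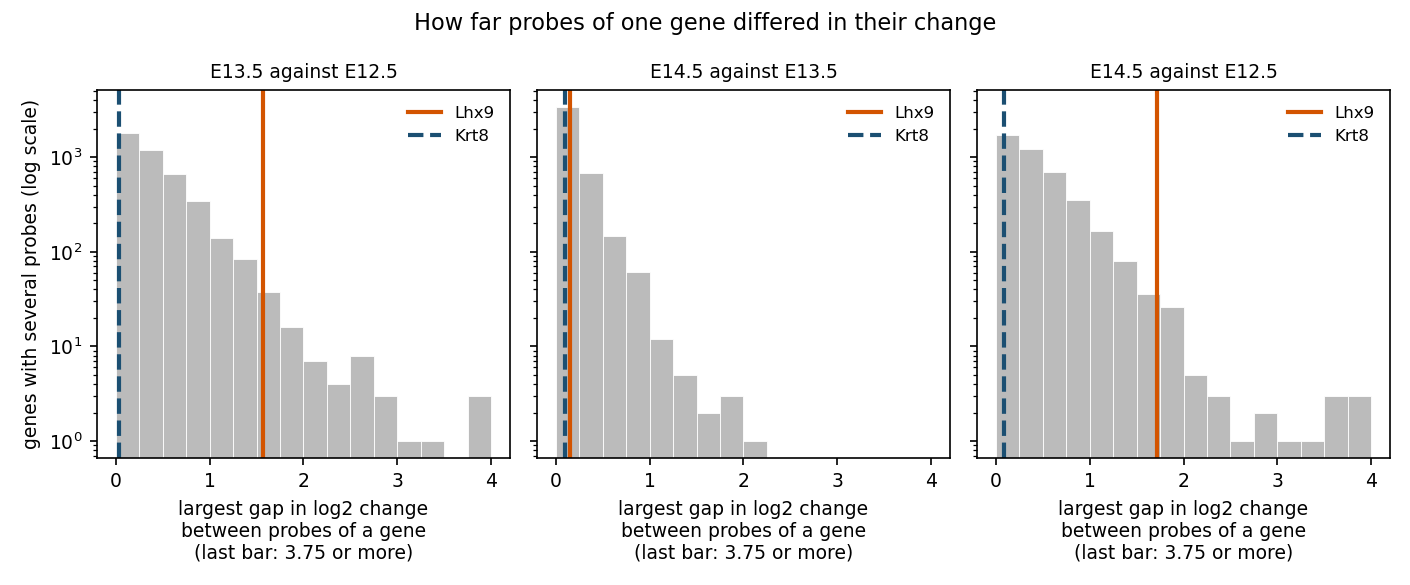
Number of genes, on a log scale, by the largest gap in log2 change between probes of the same gene. Shown are 4281 genes with several probes well above background on every array. Vertical lines mark Lhx9 and Krt8. Lhx9 lies in the right tail in the comparisons with E12.5 (gaps of 1.57 and 1.72) and in the bulk at E14.5 against E13.5 (0.15).

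Genes of the mesothelium other than the 6 were mixed. Of 14 listed, 11 were tested. At E14.5 against E12.5, 2 rose, 3 fell and 6 did not pass, with a median change of -0.10. The share that passed was near the 46.7% of all genes that passed there. At E13.5 against E12.5, 2 rose and 1 fell, where 32.0% of all genes passed. Aldh1a1, a retinoic acid synthesising enzyme, rose by 0.82 ± 0.11 at E14.5 against E12.5 (adjusted p = 0.00312), and the tight-junction gene Cldn15 rose by 0.55 ± 0.10 (0.0088). Lrrn4, a leucine-rich repeat protein of mesothelium, fell 2.31-fold (-1.21 ± 0.15, adjusted p = 0.00235). Podxl, a sialomucin, was at -0.44 ± 0.10 (adjusted p = 0.0158) and Bnc1, a zinc-finger factor named after its values were seen, at -0.37 ± 0.11 (0.041). The Bnc1 call was lost under 11 of 17 alternatives, that of Podxl under 3 and that of Cldn15 under 1. Wt1, the factor that marks coelomic epithelium and many gonadal cells, gave 3.17 and 2.94 on the E12.5 arrays, 2.76 and 2.80 on the E13.5 arrays, and 2.77 and 2.79 on the E14.5 arrays, and did not pass (-0.27 ± 0.12, adjusted p = 0.0995). The summed level of the 11 genes, in multiples of the 75th percentile, was 47.6 to 47.7 at E12.5, 60.2 to 63.9 at E13.5 and 59.1 to 62.3 at E14.5. Aldh1a1 alone carried the higher sums: without it, the other 10 genes summed to 25.5 to 27.7, 25.8 to 26.7 and 21.7 to 25.4 at the 3 stages.

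Among the other uroplakins 3 of 4 were tested, and all were dim. Upk2 fell at least 4.91-fold at E14.5 against E12.5, being well above background on 0 of 2 arrays at E14.5. That bound holds for the main processing only: over the alternatives the log2 change of Upk2 ran from -2.99 to -0.5. Upk1a rose at least 1.46-fold, being well above background on 0 of 2 arrays at E12.5, but its other probe was at -0.30 and its call was lost under 4 of 16 alternatives. Upk1b did not pass (-0.05 ± 0.39, adjusted p = 0.922).

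Other keratins showed no common direction, with 3 rising, 3 falling and 8 not passing of 14 tested at E14.5 against E12.5. In that comparison 46.7% of all genes passed. The list median was -0.21, and 0.04 with normexp background correction. Krt12 rose at least 3.35-fold from a level not well above background at E12.5, and Krt23 rose by 0.91 ± 0.16 (adjusted p = 0.00721). The Krt12 bound holds for the main processing only: over the alternatives its log2 change ran from 1.07 to 3.68. Krt17 was at 0.85 ± 0.15 (adjusted p = 0.00745) and Krt15 at -0.82 ± 0.14 (0.00627), both named after their values were seen. Krt20, an intestinal and urothelial keratin, fell by 0.97 on the log2 scale (SE 0.20, adjusted p = 0.0108), and Krt16 was at -0.95 ± 0.28 (0.0337). Their calls were lost under 2 and 6 of 17 alternatives. Krt7, which forms filaments with Krt18 and Krt19, did not pass (-0.24 ± 0.19, adjusted p = 0.339).

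Genes of epithelial junctions and their regulators were mostly lower. Of 19 tested, 11 fell, 5 rose and 3 did not pass at E14.5 against E12.5, with a median of -0.59. In that comparison 21.2% of all genes fell and 25.5% rose. At E13.5 against E12.5, 7 of the 19 fell and 3 rose. The splicing regulator Esrp1 fell by 2.12 ± 0.14 on the log2 scale (adjusted p = 0.000604) and the adhesion molecule gene Epcam by 1.91 ± 0.25 (0.00299). Spint1, a protease inhibitor of epithelia, went the other way (3.13 ± 0.32, adjusted p = 0.00134). Grhl2 was higher as well, by 2.09 ± 0.28, on its brightest probe, while the remaining probes, above background nowhere, were at -0.10 and 0.90. Ocln (0.98 ± 0.28), Prss8 (0.90 ± 0.18) and Pkp3 (0.54 ± 0.13) made up the rest of the 5, named after their values were seen. The calls on Ocln and Pkp3 were each lost under 4 of 17 alternatives. The summed level of the 19 genes was 11.9 to 12.0 at E12.5, 8.73 to 9.80 at E13.5 and 6.54 to 7.83 at E14.5.

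Mesonephric and duct genes, which mark epithelium next to the gonad that can come along in dissection, were mostly lower over the same stages as Krt8 and Krt18. At E14.5 against E12.5, where 21.2% of all genes fell and 25.5% rose, 7 of the 13 tested fell, 1 rose and 5 did not pass. At E13.5 against E12.5, 5 of the 13 fell and 1 rose. Their summed level was 15.2 to 15.7 at E12.5, 10.0 to 11.9 at E13.5 and 8.06 to 10.8 at E14.5, and without Spp1, the brightest, 8.54 to 8.87, 5.85 to 6.88 and 4.62 to 5.88. The LIM-homeodomain gene Lhx1 gave -0.49 and -0.21 on the E12.5 arrays, -0.74 and -1.51 on the E13.5 arrays, and -2.75 and -3.37 on the E14.5 arrays. It fell 6.52-fold between E12.5 and E14.5 (-2.71 ± 0.31, adjusted p = 0.00199). The calcium-binding protein gene Calb1 fell 4.29-fold (-2.10 ± 0.20, adjusted p = 0.00115) and Wfdc2, a secreted protein of duct epithelium, fell 3.79-fold (-1.92 ± 0.22, 0.00199). Calb1 was dim at the later stages, well above background on 1 of 2 arrays at E13.5. Its change ran from -2.33 to -0.77 over the alternatives. Pax2, named after its values were seen, was at 0.82 ± 0.19 (adjusted p = 0.0159). The Pax2 call rested on the second E12.5 array (adjusted p = 0.0762 without it). Ret was well above background on 0 arrays. The part of such cells in the levels of Krt8, Krt18 and Krt19 was not tested.

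Factors of the genital ridge, the class Lhx9 belongs to, were lower more often than higher. Of 12 tested at E14.5 against E12.5, 7 fell, 1 rose and 4 did not pass, where 21.2% of all genes fell and 25.5% rose. The median over the 12 was -0.45. At E13.5 against E12.5, 4 fell and 1 rose. The homeobox gene Emx2 fell 2.79-fold (-1.48 ± 0.15, adjusted p = 0.00149), and its other probe was at -1.46. Six4 fell 2.46-fold (-1.30 ± 0.18, adjusted p = 0.00344), and the Gata4 cofactor gene Zfpm2 fell 2.10-fold (-1.07 ± 0.12, 0.00171). Over the alternatives the change of Six4 ran from -1.46 to -0.52. Nr5a1, a steroidogenic factor that Lhx9 is known to activate, was the gene that rose (0.60 ± 0.11, adjusted p = 0.00693), named after its values were seen. Gata4 was at -0.07 ± 0.12 (adjusted p = 0.664).

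Of the other LIM-homeodomain genes and their cofactors, 15 of 17 were tested, of which 3 rose, 4 fell and 8 did not pass at E14.5 against E12.5. For comparison, 46.7% of all genes passed. The list median was -0.16, and 0.15 with normexp. Beside Lhx1, Isl2 fell (-1.70 ± 0.17, adjusted p = 0.00126). Lhx8, a germ cell factor, was at 2.15 ± 0.43 (adjusted p = 0.0104), and Lhx4, well above background on 1 of 2 arrays at E12.5, at 1.53 ± 0.17 (0.00172). Lhx2 (1.28 ± 0.11), Lmo3 (-1.31 ± 0.18) and Lmo2 (-0.63 ± 0.11) were the others that passed, named after their values were seen. Leaving out the second E12.5 array ended the Lhx8 call (adjusted p = 0.0526), and normexp ended that of Lmo3 (0.827). Ldb1, the common partner of LIM-homeodomain proteins, was at 0.08 ± 0.14 (adjusted p = 0.673).

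**Figure D4:**
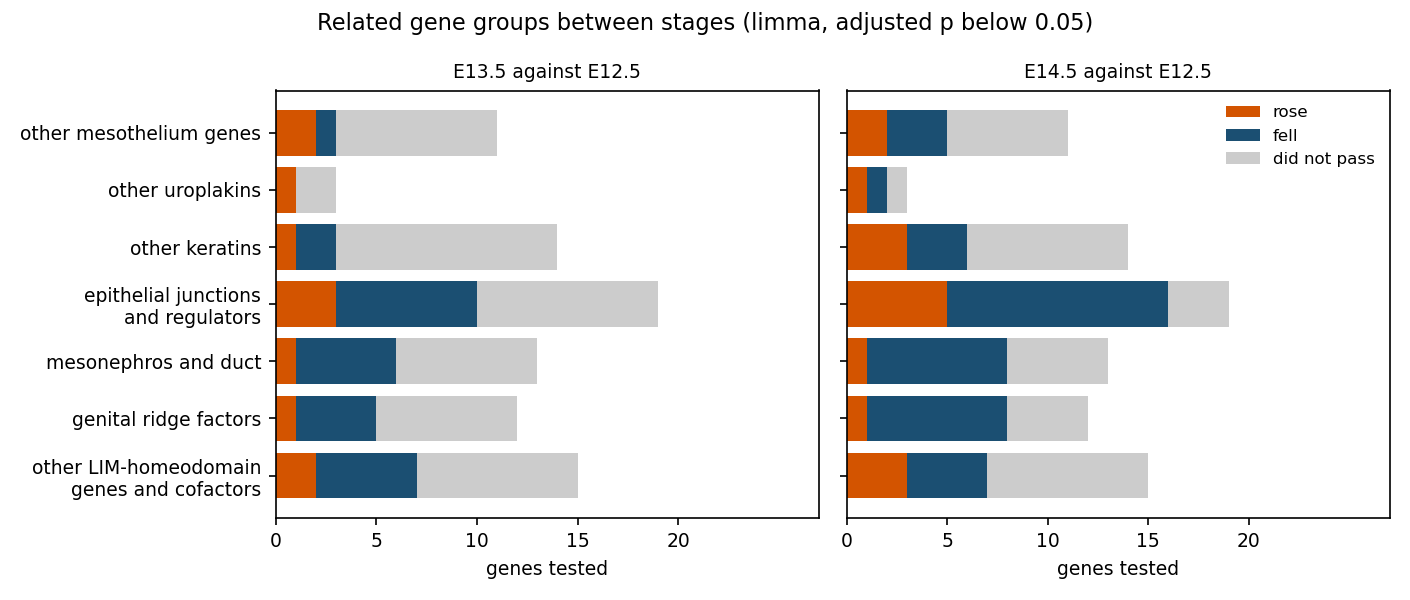
Number of tested genes of 7 related groups that rose, fell or did not pass an adjusted p of 0.05, at E13.5 and at E14.5, each against E12.5. Falls outnumber rises among epithelial junction genes (11 against 5 at E14.5), mesonephric and duct genes (7 against 1) and genital ridge factors (7 against 1). Over all genes tested, 21.2% fell and 25.5% rose at E14.5 against E12.5.

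Markers of the other cells in the gonad were counted in the same way. At E14.5 against E12.5, 46.7% of all genes passed, 25.5% as higher and 21.2% as lower. Of 10 genes listed for Sertoli cells, which also make Krt8 and Krt18, 1 rose, 3 fell and 6 did not pass at E14.5 against E12.5. The list is not limited to genes of Sertoli cells: it holds Ptch1, which did not pass (-0.37 ± 0.13, adjusted p = 0.0556). The summed level of the 10 was 121 to 145 at E12.5, 167 to 168 at E13.5 and 171 to 176 at E14.5. The higher sums came from Cst9, a cystatin gene and the one that rose (0.83 ± 0.21, adjusted p = 0.0206), a call lost when either E14.5 array was left out. Without Cst9, the other 9 genes summed to 65.0 to 70.1, 66.0 to 67.1 and 56.5 to 62.2 at the 3 stages. Sox9 fell by 1.5 ± 0.20 on the log2 scale (adjusted p = 0.00304), with its other probes at -0.70 and -1.24, and Fgf9 by 2.15 ± 0.15 (0.000633). Sox8 fell by 0.45 ± 0.11 (adjusted p = 0.0209), but its other probe was at 0.37 and the call was lost under 5 of 17 alternatives, with the sign turned with 1 of them. Among those that did not pass, Amh was at 0.03 ± 0.12, Ptgds at 0.04 ± 0.19 and Dhh at -0.20 ± 0.13, and the median over the 10 genes was -0.12. All 7 fetal Leydig cell genes tested rose. Of 10 germ cell genes, 5 rose and 2 fell, and of 9 genes listed for pregranulosa cells, 2 rose and 2 fell. Irx5, among the pregranulosa genes that rose, was well above background on 0 of 2 arrays at E12.5 and 0 of 2 at E14.5. It passed the filter through E13.5 alone, so its call compares signals not well above background. Of 8 endothelial genes 3 fell, and of 8 erythroid genes 1 rose and 5 fell. How far these shifts bear on the scaled levels of the surface genes was not tested.

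Among all genes tested, those whose centred profile over the 6 arrays lay nearest to Msln were Aoc3 (root mean square difference 0.12), Nlgn1 (0.15) and Usp17la (0.17). Aoc3 was well above background on all 6 arrays, Nlgn1 on 4 and Usp17la on 5. Aoc3 gave -3.03 and -3.22 on the E12.5 arrays, -2.09 and -1.64 on the E13.5 arrays, and -0.28 and 0.28 on the E14.5 arrays. Nearest to Upk3b were Zfp93 (0.02), Zfp354a (0.025) and Sf3b2 (0.031), and nearest to Krt19 were Tnrc18 (0.041), Tub (0.063) and Kcnk5 (0.071). Nearest to Lhx9 were Zfp84 (0.017), Aif1l (0.03) and Fem1b (0.031), to Krt8 Thoc6 (0.032), Trib1 (0.034) and Cpox (0.042), and the 3 nearest to Krt18 included G3bp1 (0.043) and Ddx19b (0.051). None of the 18 was another member. The choice of these genes depended on the processing: 3 of the 18 were found again with normexp and 7 with quantile scaling.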

How the data were processed

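Agilent Feature Extraction 9.5, per the submitters' processing notes, produced the scanner files (9.5.3.1 per the file headers). They hold spot intensity that is background-subtracted and not scaled between arrays, per the file headers. The authors' deposited table gives 1 linear ratio per probe and stage against an unstated reference. For 9603 probes the log2 differences between its columns were set against those computed here from the intensity: r was 1.0, and after a constant shift per pair of stages 100% differed by less than 0.05.

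Intensity was log2-transformed, outlier and control spots were left out, repeated spots of a probe were averaged, and the 75th percentile over probes was subtracted. Probes without a value on every array (21 of 41174) were dropped. RefSeq accessions in the files gave 1 symbol to 23464 probes, several to 89 and none to 17621. The brightest probe stood for a gene. A gene was tested when some stage had both its arrays well above background. The tests used limma 3.58.1 (R 4.3.3; lmFit and eBayes over the 6 arrays together, two-sided, Benjamini-Hochberg adjustment, 3 residual and 2.97 prior degrees of freedom). Changes are given as log2 differences ± SE, and p-values measure the spread between these arrays, whose number limits the precision. Where no array of the dimmer stage was well above background, a fold is a bound against the lowest signal called so. The script was tested on simulated data.

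The members and lists were chosen with earlier results of these data known. Named beside the members and Cyp26b1 were up to 4 genes per list, those with the largest called change between E12.5 and E14.5, and the 3 genes nearest in profile to each member. Some genes that this rule selects are not reported here. Arrays of the same number deviated together with r of -0.04, -0.06 and 0.23 between stages, so numbers were not taken to pair samples. Alternatives were normexp on spot medians (offset 50), quantile and median scaling, other filters, the mean of probes, unnamed probes, another variance prior, 4 arrays, blocks for replicate number and slide, a minimum of 2-fold, and the fit without each array in turn.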

Additional observations from a re-analysis of the deposited data

How the results depend on the processing

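With a 2-fold minimum, calls at E13.5 against E12.5 numbered 1154 genes, 1 member gene and 2 member probes, and at E14.5 against E12.5 1913 genes and 1 member gene. Leaving out 1 array gave 1400 to 3970 genes, 0 to 3 members and 1 to 3 member probes at E13.5 against E12.5, and 3926 to 5438 genes, 1 to 3 members and 2 to 5 probes at E14.5 against E12.5. At E14.5 against E13.5 it gave 0 to 42 genes and 0 members or probes. With no filter on dim probes, 1 member probe was called at E13.5 against E12.5, beside 2880 of all genes. The same setting called 1 member gene and 5243 of all genes at E14.5 against E12.5, and 0 genes at E14.5 against E13.5. That last count was also 0 for genes above background on all 6 arrays, a filter that left Msln out, with the mean of probes and with the 4 arrays compared, and it was 1 with unnamed probes. It was 402 with normexp, 97 with median scaling and 329 with a trended variance prior, each with 1 member gene, Msln, and with normexp 1 member probe. A fit of the 4 arrays compared alone called 1 member gene and 5438 of all genes at E14.5 against E12.5. Normexp, median scaling and the trended prior called 6, 6 and 5 of the 8 member probes there, beside 7083, 5726 and 6758 of all genes. Shares over all probes under the alternatives are not given here, so the member probe counts have no matching background. With a replicate block, 2 member probes and 3761 of all genes passed at E13.5 against E12.5, and 1 gene passed at E14.5 against E13.5. Krt18 then missed the threshold at E14.5 against E12.5 (adjusted p = 0.0513). A slide block could not be fitted for comparisons with E12.5 and gave the same values within the later slide.

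Msln at E14.5 against E12.5 passed under all alternatives that kept it, at 1.80 (normexp) to 3.50, with adjusted p up to 0.0126, and so did the falls of the second Lhx9 probe. The brighter Lhx9 probe turned sign at E14.5 against E13.5 with normexp (0.01), with quantile scaling (0.03), and without the second E13.5 array (0.00) or the first E14.5 array (0.06), and ran from -0.11 to 0.06 over the fits without 1 array. The other Krt8 probe did so without the second E14.5 array (0.04) and ran from -0.35 to 0.04. Of the 18 nearest genes, 3 were found again with normexp, 7 with quantile scaling, 8 with the mean of probes and 4 to 8 with 1 array left out. The Krt8 call at E14.5 against E12.5 was lost under 8 of 18 alternatives and the Krt18 call under 13 of 18, among them the 75th percentile taken over all spots (adjusted p = 0.0507), an alternative added after seeing the data. Median scaling moved the median of all genes at E14.5 against E12.5 to -0.12 in place of 0.03, with 41.1% of calls higher in place of 54.7%. Over the alternatives, falls at E14.5 against E12.5 numbered 4 to 8 among the 13 duct genes, 8 to 11 among the 19 junction genes, 4 to 9 among the 12 genital ridge factors and 1 to 4 among the 11 mesothelium genes.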
